A study of Danio rerio with 15 samples.

Results

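The mitochondrial carrier family comprises the slc25 genes and the uncoupling protein genes ucp1, ucp2 and ucp3. It was described in pronephric ducts of 8 mutant and 7 sibling libraries of zebrafish larvae at 72 h post fertilization. Members were the rows of both count tables whose RefSeq accession, version ignored, carries such a symbol in the RefSeq gene table of assembly GRCz12tu, with the accession of the highest summed count for each symbol. That gave 53 genes of 18545 symbols with an accession. Of 63 family symbols in the gene table, the other 10, among them slc25a13, slc25a39, slc25a3a and ucp2, are not analysed here.

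Mutants carried a homozygous CRISPR/Cas9 knockout of actl6a, the gene of an actin-like protein that belongs to SWI/SNF chromatin remodellers. Siblings came from the same incrosses and are labelled WT, and whether heterozygotes were among them is not given. Both groups descended from fish of the Na, K-ATPase alpha1A4:GFP transgenic line, in which the pronephric epithelium is green, and the labels name no other agent for either group. Embryos were pooled for digestion with collagenase and glowing duct fragments were picked by eye, so cells attached to the duct can be included. The replicates are not stated to come from separate crosses, so the p-values measure the spread between these libraries, which may be technical. Mutant and sibling libraries stand in separate tables, each of its own sequencing index, so the effects of index and genotype cannot be told apart here.

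Proteins of this family sit in the inner mitochondrial membrane and swap metabolites, nucleotides, cofactors and ions between the cytosol and the matrix. Adenine nucleotide carriers let ATP out and ADP in, and uncoupling proteins let protons or anions leak across the membrane. Duct epithelium pumps salt and is rich in mitochondria, so it uses many of these carriers.

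Depth ranged from 1583052 to 4013852 counts per library, and a count of 0 allows up to 3 counts, or 0.742 to 2.21 CPM (counts scaled to the library total) after scaling with TMM, the trimmed mean of M values. Intervals and floors cover counting error only. Levels are CPM scaled in this way and were not divided by transcript length, so genes are compared with themselves across libraries and not with each other. Levels of actl6a had a lowest, median and highest value of 9.87, 24.4 and 38.9 CPM in mutants, and of 63.8, 87.2 and 93.8 CPM in siblings. The number of detected accessions was 25684 to 27413 in mutant replicates 4, 5, 6 and 8, and 18188 to 21970 in mutant replicates 1, 2, 3 and 7, against 18841 to 23992 in siblings. The 13 pronephric epithelium markers, each with counts in both groups, summed to 1825 to 2307 CPM in mutant replicates 4, 5, 6 and 8 and to 4115 to 6310 CPM in mutant replicates 1, 2, 3 and 7, against 3583 to 5469 CPM in siblings. The same 4 replicates were the deepest mutants, at 2623014 to 4013852 counts, against 1583052 to 2274156 counts in mutant replicates 1, 2, 3 and 7. Fewer duct cells, less duct RNA per cell and the difference in depth cannot be told apart in such bulk samples.

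Of the 53 members, 41 passed the filter on low counts and 6 differed between mutants and siblings by edgeR's quasi-likelihood test at an adjusted p under 0.05. One of the 6, slc25a38a, was kept by the filter through mutant libraries alone. The 6 are 14.6% of the tested members, below the 19.2% called over all 12914 accessions tested. Higher in mutants were 4 members, where the background was 13.6%, and lower were 2, where it was 5.54%. The median log2 fold change (mutant over sibling) was -0.22 over the 41 members and 0.04 over all accessions tested, with 27 of 41 members (65.9%) and 46.9% of all accessions below 0. An unadjusted p under 0.05 was reached by 15 of the 41 members and by 34.0% of all accessions tested. The count of 6 fell to 3 without mutant replicate 3, 4, 5 or 6, where the backgrounds were 18.7%, 13.6%, 13.7% and 13.4%. By other settings it was 7 with at least 10 counts in 7 libraries (19.5%), 5 without sibling replicate 2 (15.6%), 5 with detected accessions as a term (10.3%), 4 with the share of erythrocyte and endothelium markers as a term (6.85%), 3 with the replicate block (8.9%), and 21 with limma voom quality weights (43.1%), the percentages being the backgrounds. Of the 21, 16 were lower, where the background was 19.2%. It was 15 without mutant replicate 1, where the background was 26.2%, and 12 of the 15 were lower, where it was 11.0%. Without mutant replicates 4, 5, 6 and 8 together it was 2, slc25a27 and slc25a34, where the background was 3.97%.

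**Figure D1:**
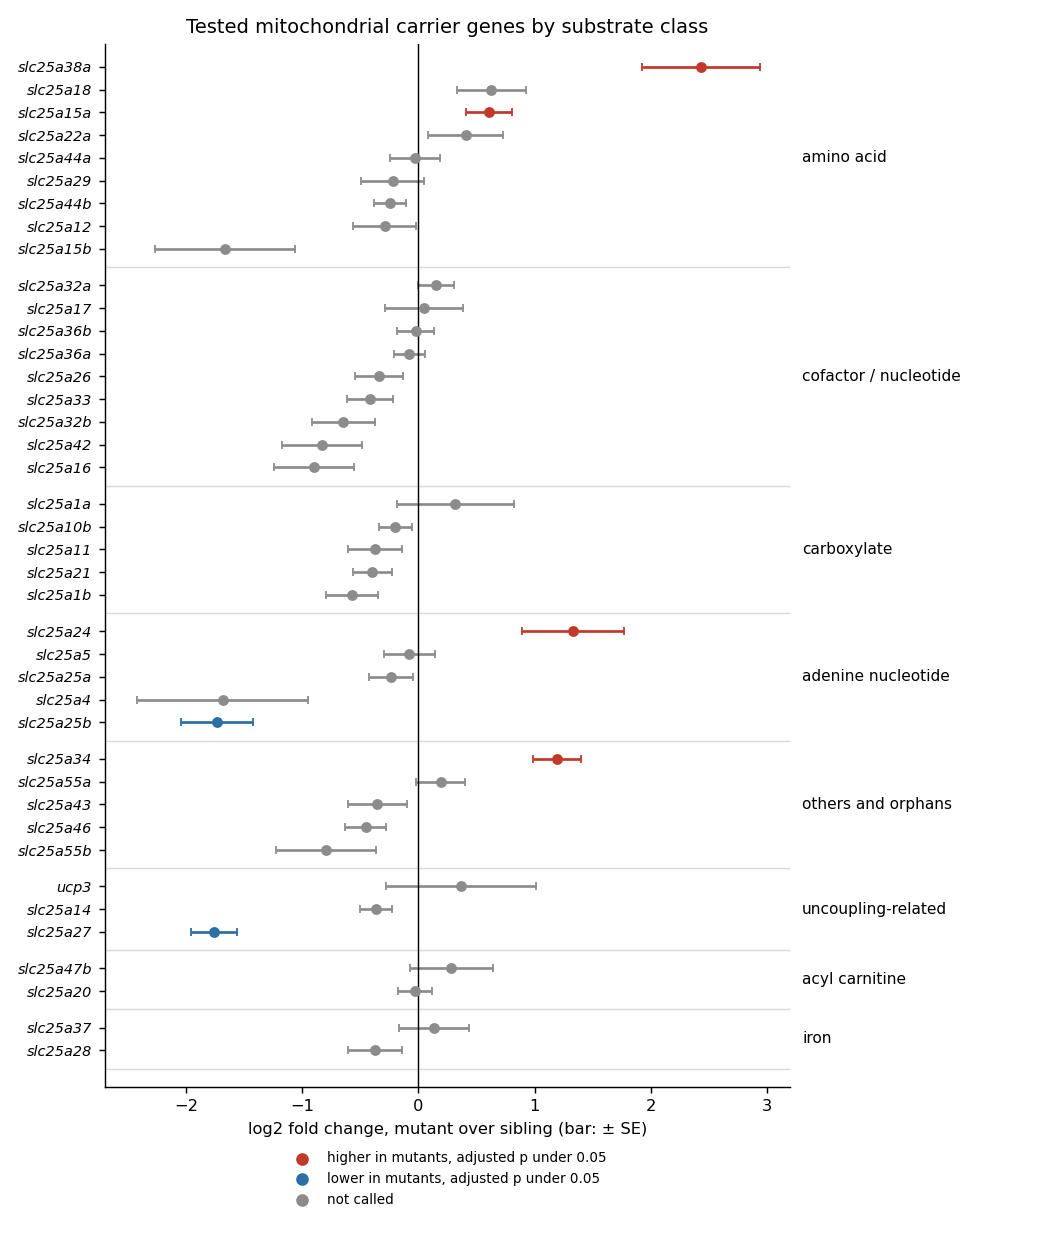
Log2 fold change (mutant over sibling, bars ± SE) on the horizontal axis for 40 of the 41 tested carrier genes, grouped by substrate class down the page. The called genes are slc25a38a, slc25a24, slc25a34 and slc25a15a to the right of 0 and slc25a27 and slc25a25b to the left of it. The other 34 drawn are grey.

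Uncoupling proteins and their close relatives were led by slc25a27 (NM_200341.1), known in mammals as UCP4 and most abundant in the brain there. It had a lowest, median and highest level of 10.7, 17.2 and 21.5 CPM in mutants, and of 36.6, 58.6 and 71.5 CPM in siblings. Every mutant library lay below every sibling. The log2 fold change was -1.76 (SE 0.20, edgeR adjusted p = 2.97e-05), and the exact two-sided permutation test on log2 CPM gave p = 0.000155, the smallest that these group sizes allow. Among 26 other settings, all of which kept the call, it ranged from -2.02 to -1.67. In mutant replicates 4, 5, 6 and 8 it had 10.7 to 21.5 CPM, and in mutant replicates 1, 2, 3 and 7 11.8 to 17.4 CPM. Both sets of mutants thus lay below every sibling. It was chosen as the leading gene of the family with earlier results of these data known.

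The 2 other tested genes of this class did not pass. slc25a14, known in mammals as UCP5, had 43.8, 54.1 and 71.6 CPM in mutants, against 56.2, 71.2 and 85.4 CPM in siblings (lowest, median and highest). The difference was -0.36 on the log2 scale (SE 0.13, edgeR adjusted p = 0.0659). It was called with at least 10 counts in 7 libraries (edgeR adjusted p = 0.0369) and by voom with quality weights (adjusted p = 0.0219). EdgeR also called it without mutant replicate 1 or sibling replicate 3, 5 or 6. With the accessions of each symbol summed the edgeR adjusted p of slc25a14 was 0.371. Below the lowest sibling were 6 of 8 mutant libraries. The gene ucp3 varied widely within groups, with 17.0, 33.8 and 314 CPM in mutants, against 6.36, 52.9 and 141 CPM in siblings. Its highest values were in mutant replicates 1 and 2, at 314 and 206 CPM, and the fold change of 0.36 had an SE of 0.64 (edgeR adjusted p = 0.718).

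The namesake of the class, ucp1, which makes heat in mammalian brown fat, did not pass the filter because few libraries had enough counts. It had 1.48, 4.19, 14.5, 9.15, 1.89, 9.87, 51.3 and 82.3 CPM in mutant replicates 1 to 8, against at most 1.25 CPM in 6 siblings and 6.01 CPM in sibling replicate 1. In all, 480 counts fell in mutants and 29 in siblings, and 272 of those in mutants came from replicate 8. Replicates 3, 4, 6, 7 and 8 of the mutants thus exceeded every sibling, while replicates 1, 2 and 5 did not. With no filter on low counts the log2 fold change of ucp1 was 3.47 (SE 0.91, edgeR adjusted p = 0.0169), and DESeq2 gave 3.78 (adjusted p = 0.000447). Without any 1 of sibling replicates 2 to 7 it passed the filter and was called. With all libraries 5 mutants and 1 sibling reached the filter's minimum count, and 7 libraries were needed. Leaving out a sibling lowers the number needed, so ucp1 then passed mostly through mutants, where it is high. Those calls are thus no support for a difference beyond the levels given. The gene ucp1 was chosen after its values were seen. Summed levels of the intestine and liver marker list were also higher in mutants, at 410.3 to 3322 CPM against 74.1 to 198.7 CPM in siblings. Of its 12 genes 6 were tested, and all 6 were called higher, where the background was 13.6%. Only 3 of the 12 had counts in all libraries. Whether the tested ones passed the filter through mutants alone was not examined. The list was highest in mutant replicate 4 and ucp1 in replicate 8, and the part of the list in the ucp1 difference was not tested.

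**Figure D2:**
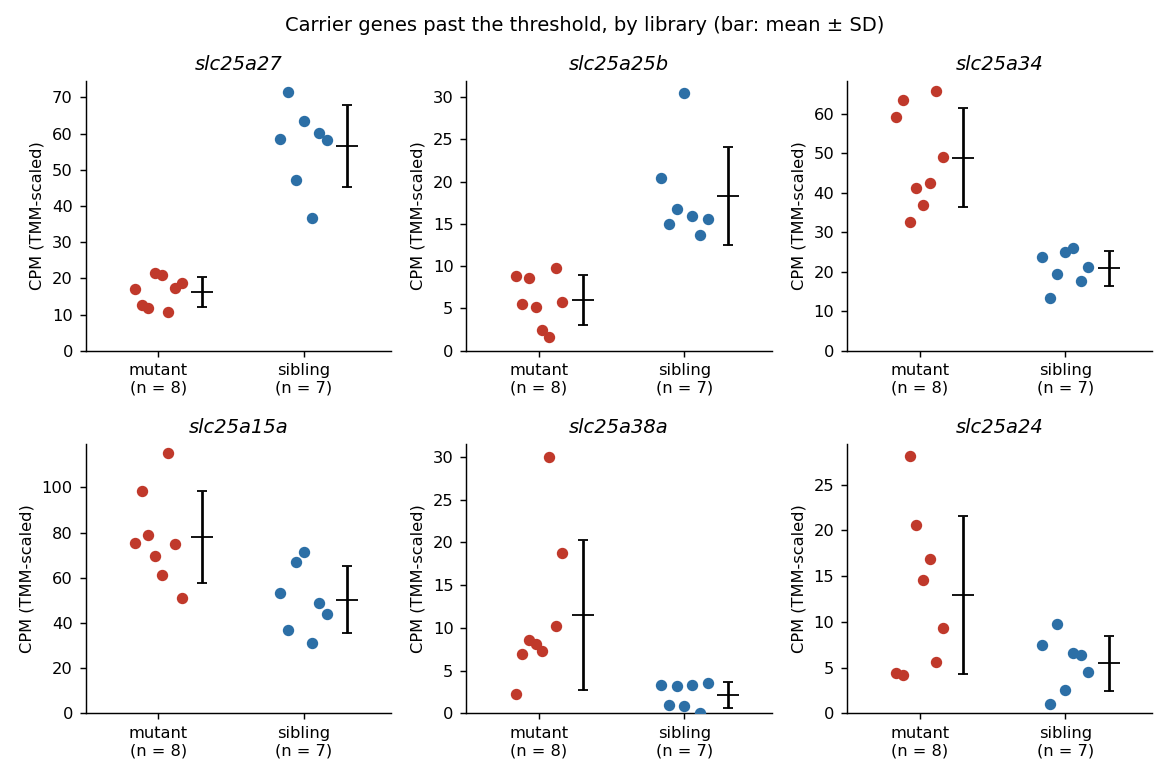
CPM (vertical axis, starting at 0) of the 6 called carriers in each mutant and sibling library, with mean and SD beside the points. In slc25a27 and slc25a25b all 8 mutants lie below all 7 siblings and in slc25a34 all 8 lie above, while the groups overlap in slc25a15a, slc25a38a and slc25a24.

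Among 5 tested adenine nucleotide and phosphate carriers 1 was called lower, 1 was called higher and 3 were not called. slc25a25b (NM_001160020.1), one of the ATP-Mg/phosphate carriers that load the matrix with adenine nucleotides under the control of calcium, had 1.65, 5.66 and 9.75 CPM in mutants, against 13.7, 15.96 and 30.5 CPM in siblings (lowest, median and highest). No mutant library reached the lowest sibling. It fell by 1.73 on the log2 scale (SE 0.31, edgeR adjusted p = 0.00127). Mutant libraries held only 4 to 21 counts of it and siblings 24 to 73. Without mutant replicates 4, 5, 6 and 8 together the log2 fold change was -1.21 and the edgeR adjusted p = 0.0751.

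A second carrier of that kind, slc25a24 (NM_001004606.1), had 4.19, 11.98 and 28.1 CPM in mutants, against 1.04, 6.36 and 9.76 CPM in siblings. It rose by 1.33 (SE 0.44, edgeR adjusted p = 0.0417). Mutant replicates 3, 4, 5 and 6 lay above every sibling, and replicates 1, 2, 7 and 8 lay within the sibling range. The call was lost in 17 of 26 other settings, among them without mutant replicate 3, 4, 5, 6 or 8 and without sibling replicate 2, 4, 5, 6 or 7, with adjusted p up to 0.332.

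The classical ADP/ATP exchangers did not pass. slc25a5 (NM_173247.1), a main exchanger of proliferating tissue in mammals, had by far the most counts of the family, 79668 of them. Its level was 1406, 2303 and 3882 CPM in mutants, against 1729, 2637 and 3013 CPM in siblings (log2 fold change -0.08, SE 0.22, edgeR adjusted p = 0.826). Its raw count lay between 4531 and 5749 in all libraries, whose totals differed far more, and the highest count of any accession in a library was 5558 to 6432. With so even a count its CPM mostly ran opposite to the library total, so its level is uncertain. With the number of detected accessions as a term the direction turned and it was called, at 0.35 (adjusted p = 0.0350).

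slc25a4, the exchanger of muscle and heart in mammals, had 4.86, 29.2 and 116 CPM in mutants, against 16.6, 65.6 and 482 CPM in siblings (log2 fold change -1.68, SE 0.73, edgeR adjusted p = 0.118). The highest levels were 482 CPM in sibling replicate 4, 354 CPM in sibling replicate 5 and 131 CPM in sibling replicate 1. The same 3 libraries had the highest summed level of 14 skeletal muscle markers, at 16769, 14835 and 6057 CPM. At the low end, mutant replicate 5 had 4.86 CPM of slc25a4 and the lowest marker sum, 550.5 CPM. That sum was 550.5 to 5063 CPM in mutants and 853.4 to 16769 CPM in siblings, and 9 of the markers had counts in every library while 3 were at 0 in all mutants. The part of muscle in the values of slc25a4 was not tested. slc25a3b, which by its name is a phosphate carrier, had 0 to 6 counts per library, and slc25a6 at most 5, too few to detect a difference.

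**Figure D3:**
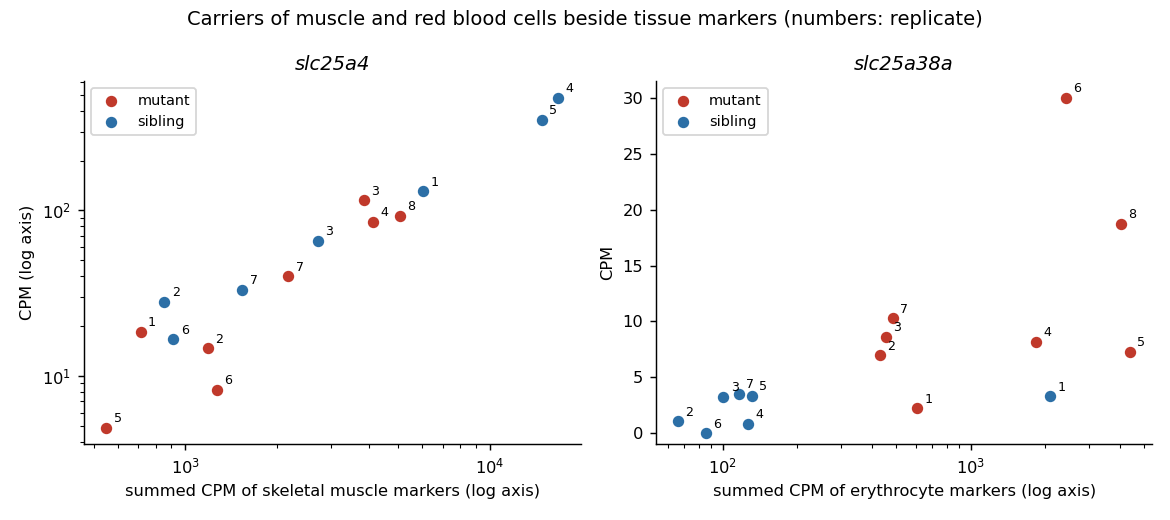
Left, CPM of slc25a4 against the summed CPM of skeletal muscle markers, both on log axes. Right, CPM of slc25a38a against the summed CPM of erythrocyte markers on a log axis, with points for mutant and sibling libraries labelled by replicate. In the left panel sibling replicates 4 and 5 stand at the top on both axes. In the right panel mutant replicate 6 is highest at 30.0 CPM and mutant replicate 5, which has the highest marker sum, is at 7.29 CPM.

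Amino acid carriers included 2 called genes, both higher. slc25a38a (NM_001076602.1) imports glycine for haem synthesis in red cells, and its human counterpart is mutated in a sideroblastic anaemia. It had 2.21, 8.39 and 30.0 CPM in mutants, against 0, 3.25 and 3.51 CPM in siblings (lowest, median and highest). Apart from mutant replicate 1, each mutant library lay above every sibling. It rose by 2.43 (SE 0.51, edgeR adjusted p = 0.00255), with 247 counts in all mutants together and 33 in all siblings. It passed the filter on low counts through 7 mutant libraries and no sibling, so a gene kept in this way had to differ, and its test is no support for a difference beyond the levels given. Summed levels of 12 erythrocyte markers were 429.8 to 4386 CPM in mutants, against 66.3 to 2097 CPM in siblings, where all except sibling replicate 1 had at most 131.7 CPM. The 5 libraries with the highest marker sums were mutant replicates 5, 8 and 6, sibling replicate 1 and mutant replicate 4, in which slc25a38a had 7.29, 18.8, 30.0, 3.31 and 8.16 CPM. The part of red cells in its difference was not tested beyond a term in the model. With the share of erythrocyte and endothelium markers in the model the log2 fold change was 1.77 (edgeR adjusted p = 0.0903), and with detected accessions as a term it was 1.82 (adjusted p = 0.0654). Without any 1 of mutant replicates 2 to 8 it was not kept for testing.

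The ornithine carrier slc25a15a (NM_001080638.1), which links the matrix to arginine and urea metabolism, had 51.1, 75.1 and 115 CPM in mutants, against 31.3, 48.9 and 71.4 CPM in siblings. The groups overlapped, with 5 of 8 mutant libraries above every sibling. It rose by 0.61 (SE 0.20, edgeR adjusted p = 0.0435), close to the threshold. That call was lost in 23 of 26 other settings (adjusted p up to 0.137), for instance without any single library except mutant replicate 8 or sibling replicate 4.

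The other 7 tested amino acid carriers did not pass by edgeR with all libraries. Voom with quality weights called slc25a12, slc25a18, slc25a22a and slc25a44b. slc25a12, an aspartate and glutamate exchanger of the malate-aspartate shuttle, had 90.6, 173 and 368 CPM in mutants, against 171, 253 and 265 CPM in siblings (log2 fold change -0.29, SE 0.27, edgeR adjusted p = 0.472). Mutant replicates 4, 5, 6 and 8 had 90.6 to 125 CPM, below every sibling, and the other mutants 222 to 368 CPM. The glutamate carriers slc25a18 and slc25a22a ran the other way, at 37.0 to 49.8 CPM and 44.4 to 68.4 CPM in mutant replicates 4, 5, 6 and 8. In the other mutants they were at 9.60 to 25.7 and 14.0 to 42.6 CPM. In siblings they were at 12.4 to 30.6 and 12.5 to 64.04 CPM, and neither passed (log2 fold changes 0.63 and 0.41). slc25a44a and slc25a44b, homologs of a mammalian carrier of branched-chain amino acids, had log2 fold changes of -0.03 and -0.24.

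Carboxylate carriers had no call among 5 tested genes by edgeR with all libraries. An unadjusted p under 0.05 was reached by 2, and log2 fold changes were -0.57 to 0.32. DESeq2 called none of them either, and voom with quality weights called slc25a10b, slc25a11 and slc25a1b. The class contains the oxoglutarate and malate exchanger slc25a11, at 117, 171 and 362 CPM in mutants, against 177, 255 and 329 CPM in siblings. Its log2 fold change was -0.38 (SE 0.23, edgeR adjusted p = 0.269). Mutant replicates 4, 5, 6 and 8 were at 117 to 135 CPM, below every sibling, and replicates 1, 2, 3 and 7 at 206 to 362 CPM. The citrate carrier slc25a1b was at 25.1, 34.5 and 52.3 CPM in mutants, against 29.8, 50.5 and 78.4 CPM in siblings, and did not pass (-0.57, edgeR adjusted p = 0.0862).

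Cofactor and nucleotide carriers had no call among 10 tested genes by edgeR with all libraries, with 3 at an unadjusted p under 0.05. DESeq2 called none of them, while voom with quality weights called slc25a16, slc25a26, slc25a32b and slc25a33. slc25a33, a carrier of pyrimidine nucleotides, was at 97.2, 135 and 242 CPM in mutants, against 146, 209 and 231 CPM in siblings (-0.42, SE 0.20, edgeR adjusted p = 0.154). slc25a16 had the lowest fold change of the class, at -0.90 (SE 0.34, edgeR adjusted p = 0.0768). Siblings had 55.1 to 96.8 CPM of slc25a16. In mutant replicates 2, 5, 6 and 7 it had 14.0 to 25.1 CPM. In mutant replicates 1, 3, 4 and 8 it had 52.5 to 84.9 CPM. It was chosen after its values were seen. slc25a51a, whose human counterpart brings NAD into mitochondria, was too sparse to test, with 21 counts in all mutants and 1 in all siblings.

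The mitoferrins bring iron into mitochondria. slc25a28, the broadly used mitoferrin, was at 64.2, 99.2 and 214 CPM in mutants, against 100.4, 154 and 173 CPM in siblings. Its log2 fold change was -0.37 (SE 0.23, edgeR adjusted p = 0.275). Voom with quality weights called it, at -0.77 (adjusted p = 0.00259), and so did edgeR without mutant replicate 1. With detected accessions as a term it was at 0.08 (edgeR adjusted p = 0.650). slc25a37, the mitoferrin of red cells that is mutated in the zebrafish frascati line, was at 8.61, 27.1 and 46.3 CPM in mutants, against 16.8, 21.8 and 43.6 CPM in siblings (0.13, SE 0.30, edgeR adjusted p = 0.781). slc25a37 had 30.4 to 46.3 CPM in mutant replicates 4, 5, 6 and 8 and 8.61 to 23.7 CPM in replicates 1, 2, 3 and 7. Its highest values lay in mutant replicate 4, sibling replicate 1 and mutant replicate 8. Their erythrocyte marker sums were 1840, 2097 and 4042 CPM, among the 5 highest. Mutant replicate 5, with the highest sum at 4386 CPM, was not among these 3. The part of red cells or of depth in the values of slc25a37 was not tested. Of the acyl carnitine class, slc25a20, which carries fatty acids as carnitine esters, had 129, 163 and 248 CPM in mutants, against 133, 171 and 207 CPM in siblings. The log2 fold change of slc25a20 was -0.03 (SE 0.15, edgeR adjusted p = 0.909).

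Among the remaining members slc25a34 (NM_200580.1) was called. It is an orphan carrier, without a settled substrate, and had 32.6, 45.7 and 65.7 CPM in mutants, against 13.5, 21.1 and 25.9 CPM in siblings (lowest, median and highest). Every mutant library lay above every sibling. The log2 fold change was 1.19 (SE 0.21, edgeR adjusted p = 0.00108), it ranged from 1.03 to 1.31 over 26 other settings, and the call held in all of them. Its levels were 37.0 to 49.01 CPM in mutant replicates 4, 5, 6 and 8 and 32.6 to 65.7 CPM in mutant replicates 1, 2, 3 and 7. Its near relative slc25a35 had 49 counts in mutants and 81 in siblings and was not tested. slc25a46, which sits in the outer membrane and affects mitochondrial shape, differed by -0.46 on the log2 scale (SE 0.17, edgeR adjusted p = 0.0760). In 5 of 8 mutant libraries it was below the lowest sibling. It was called with at least 10 counts in 7 libraries (edgeR adjusted p = 0.0474) and by voom with quality weights (adjusted p = 0.00149). EdgeR also called it without mutant replicate 1 or 2 or sibling replicate 1 or 5.

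Among members not described so far, slc25a1a, a paralog of the citrate carrier, split the mutants, with 19.3 to 35.7 CPM in replicates 4, 5, 6 and 8 and 4.08 to 6.64 CPM in replicates 1, 2, 3 and 7, against 2.01 to 25.9 CPM in siblings. The tested genes slc25a17, slc25a21, slc25a29, slc25a42 and slc25a47b were not called by edgeR with all libraries. Their log2 fold changes lay between -0.83 (slc25a42) and 0.28 (slc25a47b). Without sibling replicate 7 edgeR called slc25a21 and slc25a42. Not tested for low counts were also slc25a10a, slc25a22b, slc25a23b, slc25a24l, slc25a29l, slc25a40 and slc25a48, with at most 6 counts in any library.

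Over the family, groups did not overlap in 3 of 41 tested members, slc25a27, slc25a25b and slc25a34. The background for this was 2.31% of all accessions tested, 0.736% lower and 1.57% higher in mutants.

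**Figure D4:**
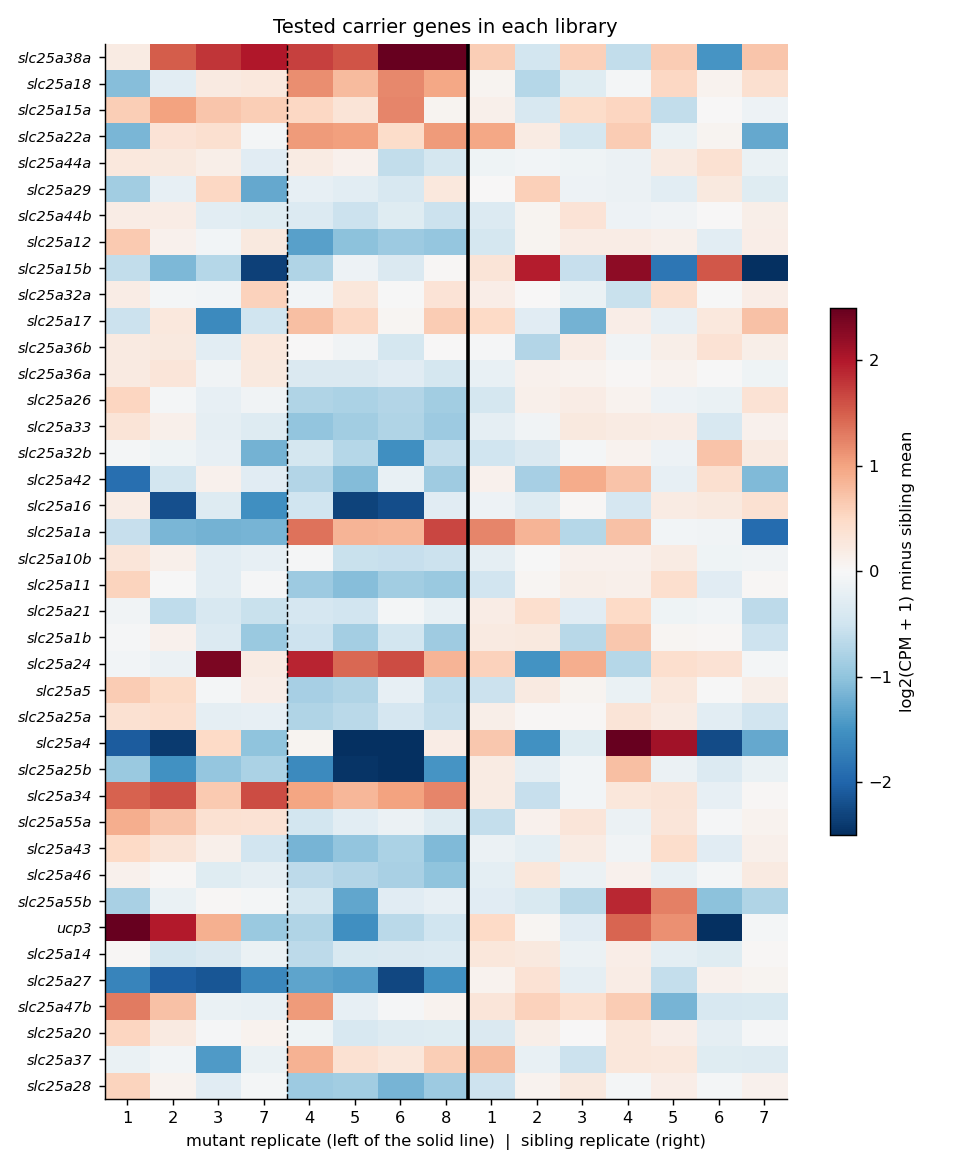
Each cell is log2(CPM + 1) of a tested carrier in a library minus the sibling mean of that gene, blue for lower and red for higher. The mutant replicates are left of the solid line, with replicates 4, 5, 6 and 8 right of the dashed line, and siblings are at the right. slc25a27 and slc25a25b are blue and slc25a34 is red in all 8 mutants, whereas slc25a11, slc25a12, slc25a28 and slc25a43 are blue in replicates 4, 5, 6 and 8.

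Mutant libraries differed among themselves along the split in detected accessions, which was also a split in depth. Mutant replicates 4, 5, 6 and 8 had 2623014 to 4013852 counts and the other mutants 1583052 to 2274156, against 1698007 to 3084051 in siblings. In 11 of 41 tested members (26.8%) mutant replicates 4, 5, 6 and 8 all lay below every sibling, against 13.4% of all accessions tested, and in 13 members (31.7%) they all lay below the other 4 mutants, against 18.1%. The 11 include slc25a25b and slc25a27, in which all 8 mutants lay below every sibling, and slc25a14, in which the 2 sets of mutants overlapped. Below the other mutants were for example slc25a5, slc25a11, slc25a12, slc25a20, slc25a28, slc25a33 and slc25a55a. In slc25a1a, slc25a18, slc25a22a and slc25a37 mutant replicates 4, 5, 6 and 8 all lay above the other mutants. The share of all accessions in that direction was not counted. The raw counts of slc25a11 differed less, at 329 to 529 in mutants and 416 to 644 in siblings. Summed over all 53 members, the family took 3647 to 4528 CPM in mutant replicates 4, 5, 6 and 8 and 5523 to 8227 CPM in mutant replicates 1, 2, 3 and 7, against 4665 to 6902 CPM in siblings. Without slc25a5 the sums were 2167 to 2482 CPM and 3067 to 4345 CPM in these mutants, against 2876 to 4089 CPM in siblings. Markers of some other tissues were higher in mutant replicates 4, 5, 6 and 8 than in the other mutants. They had 1840 to 4386 against 429.8 to 609.0 CPM for erythrocytes and 441.1 to 874 against 125.5 to 203.1 CPM for endothelium. Intestine and liver markers had 729.7 to 3322 against 410.3 to 434.0 CPM. In siblings erythrocyte and endothelium markers had 66.3 to 2097 and 60.5 to 554.4 CPM. Sibling replicate 1, the deepest sibling at 3084051 counts, had the highest of both. It also had the most detected accessions of the siblings, 23992. Its family sum, 4665 CPM, was the lowest of the siblings, though not without slc25a5. Its intestine and liver sum, 124.2 CPM, was the sibling median. The 2 sets of mutants overlapped in skeletal muscle markers (550.5 to 5063 against 712.4 to 3872 CPM) and neuron markers (47.8 to 72.5 against 28.2 to 76.6 CPM). Epidermis markers summed to 1327 to 11177 CPM in mutant replicates 4, 5, 6 and 8. In the other mutants they summed to 1581 to 5205 CPM, and in siblings to 409.9 to 2263 CPM. Of 11 epidermis markers tested 7 were called higher in mutants (background 13.6%) and none lower (5.54%). Of 12 pronephric epithelium markers tested 1 was called lower and none higher. Of the tested erythrocyte markers 1 of 8 was called higher, of endothelium markers 1 of 7, and of skeletal muscle and neuron markers none. Neither the part of these tissues nor that of depth in the lower carrier levels was tested. With the detected accessions as a term the median log2 fold change of the tested members was -0.01, and 0.03 over all accessions tested. With the share of erythrocyte and endothelium markers as a term it was 0.08 over the members and 0.08 over all accessions. slc25a55a, at 192, 287 and 495 CPM in mutants and 173, 280 and 324 CPM in siblings, had a log2 fold change of 0.19 (edgeR adjusted p = 0.552) and was called with these terms, at 0.62 and 0.76 (adjusted p = 0.000439 and 0.0133).

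Zebrafish keep many carriers as a and b paralogs, and 7 pairs had both members tested. Their ratio within a library does not depend on the scaling of that library. The log2 ratio of slc25a25b to slc25a25a was -6.22, -4.55 and -4.01 in mutants, against -3.73, -3.48 and -2.93 in siblings (lowest, median and highest, with 0.5 added to each count). In each mutant library the ratio was lower than in every sibling, and slc25a25a itself had 110, 149 and 251 CPM in mutants, against 133, 190 and 234 CPM in siblings (-0.24, SE 0.19, edgeR adjusted p = 0.409). Voom with quality weights called slc25a25a, at -0.42 (adjusted p = 0.0416). In the other 6 pairs the ratios overlapped between groups. The ornithine pair had log2 fold changes of 0.61 for slc25a15a and -1.66 for slc25a15b (edgeR adjusted p = 0.0636). EdgeR called slc25a15b without sibling replicate 1, 3, 5 or 7. With the accessions of each symbol summed the edgeR adjusted p of slc25a15b was 0.132. In siblings slc25a15b varied widely, with 59.7, 49.2 and 36.7 CPM in replicates 4, 2 and 6 and 0 in replicate 7, against 1.54 to 12.1 CPM in mutants. In the pairs slc25a1a and slc25a1b, slc25a32a and slc25a32b, and slc25a55a and slc25a55b the a paralog had a log2 fold change above 0 (0.32, 0.15 and 0.19). The b paralog was below 0 (-0.57, -0.65 and -0.79). None of these 6 genes was called by edgeR with all libraries and without further terms. With 1 library left out edgeR called slc25a1b (without mutant replicate 1 or 2, or sibling replicate 3 or 7). It also called slc25a32b (without sibling replicate 1). Voom with quality weights called slc25a1b and slc25a32b, and slc25a55a was called with the terms given above. For slc25a55b the highest values, 138 and 89.1 CPM, were in sibling replicates 4 and 5, the libraries with the highest muscle marker sums. The part of muscle in the values of slc25a55b was not tested. slc25a36a and slc25a36b were at -0.08 and -0.02.

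**Figure D5:**
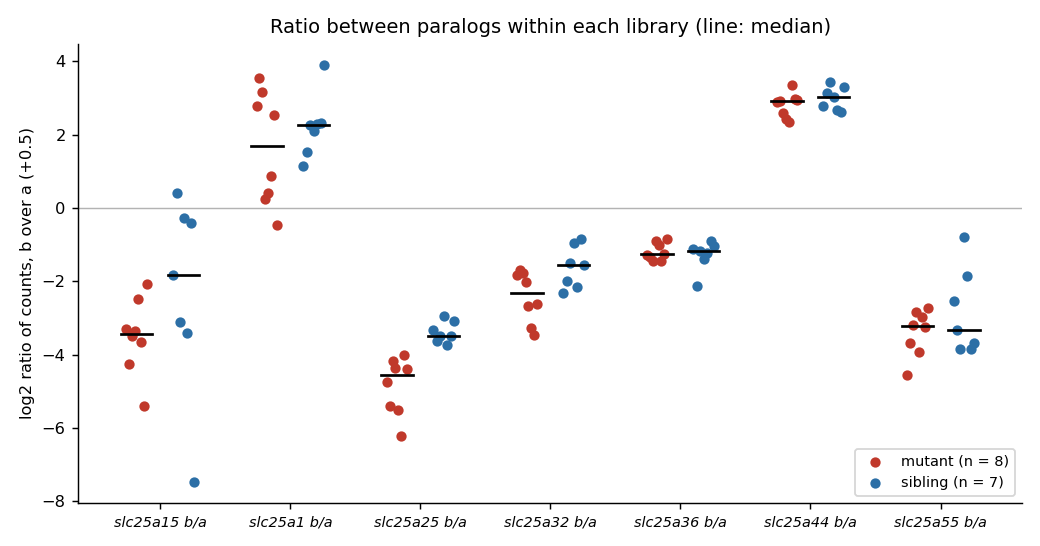
Log2 ratio of the counts of the b over the a paralog (vertical axis) in each mutant (left of each pair) and sibling library, with lines at the medians. For slc25a25 the mutant medians lie at -4.55 and those of siblings at -3.48 with no overlap, and the ratios of the other pairs overlap.

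Genes that act with the carriers were taken from 8 lists covering protein import, pyruvate and outer membrane channels, shuttle enzymes, citrate use, biogenesis regulators, calcium uptake and mitochondrially encoded proteins. Of 70 such genes 62 were tested and 4 were called, 2 higher and 2 lower (6.45%, against 19.2% of all accessions). The median log2 fold change of the 62 was -0.26. Below 0 were 54 of the 62, against 65.9% of the tested carriers and 46.9% of all accessions. The 2 called lower were the carnitine acetyltransferases crata, at 58.0, 67.2 and 97.5 CPM in mutants against 86.9, 107 and 119 CPM in siblings (-0.56, SE 0.13, edgeR adjusted p = 0.00609), and cratb (-0.50, SE 0.16, edgeR adjusted p = 0.0416). They exchange acetyl groups with carnitine. Higher were acaca, which makes malonyl-CoA for fatty acid synthesis, by 1.77 (SE 0.40, edgeR adjusted p = 0.00629), and pprc1, a coactivator of mitochondrial biogenesis, by 0.69 (SE 0.19, edgeR adjusted p = 0.0205). acaca was at 7.38, 29.5 and 46.9 CPM in mutants, against 3.99, 7.05 and 18.9 CPM in siblings, and pprc1 at 63.5, 95.7 and 149 CPM in mutants, against 37.6, 62.9 and 80.5 CPM in siblings. In both genes 6 of 8 mutant libraries were above the highest sibling.

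No gene was called by edgeR among 13 for protein import of carriers (2 at an unadjusted p under 0.05), 5 pyruvate carrier and channel genes (0), 8 enzymes of the malate-aspartate shuttle and glutamate metabolism (2), 5 calcium uniporter genes (1) or the 13 mitochondrially encoded proteins (0). In mutant replicates 4, 5, 6 and 8 the protein import list summed to 1579 to 1947 CPM, and the lowest sibling had 2239 CPM. The malate-aspartate and glutamate list summed to 1024 to 1165 CPM there, and the lowest sibling had 1843 CPM. The pyruvate and channel, carnitine and citrate lists also lay below every sibling in these replicates. The biogenesis, calcium uptake and mitochondrially encoded lists overlapped with siblings. The mitochondrially encoded proteins summed to 12299.5 to 31293 CPM in mutants, against 15764 to 28525 CPM in siblings, and their log2 fold changes lay between -0.23 and 0.03. COX2 had 5558 to 6131 counts in mutants and 5599 to 6432 in siblings, and COX1 had 5300 to 6006 in mutants and 5243 to 6313 in siblings. These counts were about as even across libraries as those of slc25a5, so the levels of such genes are uncertain in the same way. The count of 4 partner genes was 20 without mutant replicate 1 (background 26.2%), with 18 of them lower (background 11.0%). It was 7 without sibling replicate 1 (23.4%) or 5 (18%), 2 without mutant replicate 4 (13.6%) or 6 (13.4%), and 0 without mutant replicates 4, 5, 6 and 8 together (3.97%).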

How the data were processed

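Per the file headers, the authors' 2 tables hold whole-number counts, a RefSeq accession to a row and a sample barcode to a column, with 1 table per sequencing index. The submitters' processing notes name cutadapt, FastQC, STAR, featureCounts and edgeR and the build GRCz11. The sources used here do not say if molecules or reads were counted. Accessions in only 1 table were set to 0 in the other, which leaves 33298, and 20452 (61.4%) matched a symbol. They held 87.6% of the counts. The other rows have no symbol here, so further family members may be among them. No replicate pair matched within sampling noise (chi-square per degree of freedom 8.39 to 39.3).

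Mutants were compared with siblings over all accessions with edgeR 4.0.16 in R 4.3.3: TMM, filterByExpr, robust glmQLFit, glmQLFTest, and Benjamini-Hochberg adjustment. The SE is the size of the log2 fold change over the square root of F. The script was tested on simulated data. Single values used exact two-sided permutation over 6435 splits. DESeq2 1.42.0, limma 3.58.1 (voom), other filters, terms and left-out libraries were alternatives. The members, lists, role classes and tests were chosen with earlier results of these data known, and slc25a55a and slc25a55b were moved to the class without a settled role after the symbols were read. Named were actl6a, slc25a27, every called member, the 6 members with the highest CPM in siblings, the highest of each class, tested paralog pairs, and up to 3 called genes of each partner list. Any others were chosen after their values were seen. The values of 1 tested member, which was not called, are not reported here and it is not drawn, though it is in the counts.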

Additional observations from a re-analysis of the deposited data

Results flagged for a closer look

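In 52 groups of libraries (26 named genes in each genotype), 1 value stood far from the rest by Dixon's criterion, and about 2.6 such values arise by chance. The level of slc25a25b in sibling replicate 4 was 30.5 CPM, and the next sibling had 20.4 CPM. Without that library slc25a25b was still called lower in mutants.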

How the results depend on the processing

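actl6a, slc25a27 and slc25a34 kept their direction and call in all 26 alternatives, with log2 fold changes of -2.19 to -1.58, -2.02 to -1.67 and 1.03 to 1.31. slc25a25b lost its call in 1 alternative, given above. slc25a38a lost its call in 2 alternatives, and in 9 it did not pass the count filter. The count of 6 called members ranged from 3 to 15 with 1 library left out. It was 3 with the replicate block, 2 without mutant replicates 4, 5, 6 and 8 together, and 21 (16 lower) with voom quality weights, where the background was 43.1%. The cause was not tested. The count of 4 called partner genes ranged from 2 to 20 with 1 library left out. At an adjusted p under 0.01 it was 2, where 832 of all 12914 accessions were called higher and 199 lower. It was 2 with the replicate block (background 8.9%) and 7 with at least 10 counts in 7 libraries (19.5%). With voom quality weights it was 39 (43.1%), and 37 of these were lower (background 19.2%). It was 0 with the share of erythrocyte and endothelium markers in the model (6.85%). Without mutant replicates 4, 5, 6 and 8 together it was also 0 (3.97%). Replicate numbers shared between groups did not pair the libraries: deviations of same-numbered libraries correlated at -0.54 to 0.26 over 7 pairs, and the block left slc25a27, slc25a25b and slc25a34 called, with a background of 8.9%. Counts of 0 to 8 per library limit the untested members other than ucp1 and slc25a35.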

Other observations

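Some family symbols had a further accession that the choice of rows left out. For slc25a14 the second row (NM_200164.2) had 0.303, 8.79 and 79.7 CPM in mutants, against 0.417, 2.01 and 81.9 CPM in siblings (lowest, median and highest). It thus ranged from near 0 to about the level of the main row within both groups (log2 fold change -0.45, SE 1.00, edgeR adjusted p = 0.779). The second row of slc25a15b (XM_005165177.4) had 2.72, 6.92 and 14.0 CPM in mutants, against 0, 1.33 and 57.2 CPM in siblings (log2 fold change -1.09, SE 0.77, edgeR adjusted p = 0.335). How reads were shared between rows of the same gene is not given in the sources used here, so values of these pairs of rows are uncertain.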
